A study of Homo sapiens with 10 samples.

Results

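The genes described here are 46 listed members of the pathways that repair crosslinked, broken, bulky or mispaired DNA, followed in a human chronic myeloid leukaemia (CML) cell line and in a subline of it that resists cyclophosphamide. Members were taken by symbol, as every probe set of the array that the platform annotation gives to a single symbol of the list. A probe set is a group of short probes read together as 1 signal. This gave 79 probe sets for 41 of the 46 genes, out of 12558 probe sets and 8226 genes tested in all. ERCC5 and PMS2 were covered only by probe sets that carry several symbols, and BRCA2, FANCA and FANCE were not analysed here. The 2 groups were 5 arrays of the sensitive line and 5 of the resistant subline, both kept in culture medium. The labels give neither the name of the line, nor how resistance was raised, nor whether the subline is 1 clone. Whether the 5 samples of each group are separate cultures is not stated either, so the p-values speak only of the spread among these samples, and that spread may be technical.

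Cyclophosphamide is a nitrogen mustard whose activated form alkylates guanine and links the strands of DNA to each other. Cells take such crosslinks apart with the Fanconi anaemia proteins and with the nuclease ERCC1-XPF of nucleotide excision repair, fill the gap by bypass synthesis and mend the remaining double-strand break by homologous recombination. Non-homologous end joining is the other main route for breaks, mismatch repair senses mispaired bases, and the kinases ATM and ATR signal the damage to the cell cycle.

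No measure of array quality differed between the groups beyond its spread. A negative control limit was set on each array from 32 control probe sets, and 55.1% ± 2.6 of probe sets exceeded it in sensitive against 54.9% ± 4.35 in resistant cells (mean ± SD of 5 arrays, as for every ± given; exact permutation p = 0.905, two-sided). For the actin control, 3' over 5' signal was 1.38 ± 0.144 and 1.43 ± 0.051 (exact permutation p = 0.421), and for the GAPDH control it was 0.876 ± 0.0373 and 0.847 ± 0.0714 (exact permutation p = 0.437). Of 24 measured proliferation genes 1 was called, MCM4, which fell, and their summed signal was 271849 to 346857 in sensitive and 282752 to 314488 in resistant arrays. Of 9 measured pan-haematopoietic and myeloid markers 7 were above the limit on all arrays of each group, although LCP1 and CORO1A fell and LAPTM5 rose, while 0 of 10 markers of epithelium, connective tissue, endothelium and liver were above it on all arrays of either group. Of 11 granulocytic markers 10 fell, with a summed signal of 211254 to 505067 in sensitive and 2116 to 3681 in resistant arrays, while 1 of 6 erythroid genes, KLF1, and 1 of 8 megakaryocytic genes, ITGA2B, rose by 2.87 and 3.40 on the log2 scale. The megakaryocytic sum was 1771 to 3644 in sensitive and 12755 to 20626 in resistant arrays, and the erythroid sum 22835 to 43916 and 40467 to 62228. In resistant arrays most of the megakaryocytic sum was ITGA2B (13396 ± 3366). Of the 8 megakaryocytic genes 5 were never above the limit, and 3 had log2 differences below 0. Most of the erythroid sum was TFRC, which was not called (29978 ± 10015 and 35547 ± 6377, adjusted p = 0.63, limma). The sensitive arrays were not alike in some markers. CLC was 3813, 3860 and 3590 in sensitive replicates 1 to 3, and 41628 and 107507 in 4 and 5. EPX was 4885, 3585 and 4039, against 40734 and 38859. GATA1, listed here among the erythroid genes, was 431, 510 and 968, against 3800 and 3650. MS4A3 was 17309, 18673 and 16468, against 39685 and 32805, and PRG2 128799, 87498 and 103236, against 182061 and 231416. KLF1 was 463, 705 and 991, against 1613 and 2340. CTSG went the other way, with 11912, 9035 and 3007, against 1773 and 1675. Some other markers, among them RNASE2, did not split in this way. What set these arrays apart was not tested. The part of all these markers in the results on repair genes was not tested either.

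Few of the repair genes were called, as held for all genes tested. A probe set was called at a Benjamini-Hochberg adjusted p under 0.05 in limma, a linear model with shared variance, fitted to log2(signal + 114.8) and adjusted over all 12558 probe sets. Every log2 difference given is resistant minus sensitive on that scale. Of the 79 member probe sets 3 were called lower and 0 higher, where 7.41% of all probe sets were called, 2.99% lower and 4.42% higher. That imbalance, 555 higher and 376 lower, became 438 and 423 with arrays scaled to a common median, a shift of the median log2 difference by -0.10. At an unadjusted p under 0.05 in limma 7 were higher and 7 lower, where 17.9% of all probe sets were either. Taking for each gene the probe set with the highest mean, 2 of 41 members (4.88%) fell, PRKDC and NBN, and 0 rose, against 8.4% of all 8226 genes called. At an unadjusted p under 0.05 there were 3 members higher and 5 lower, or 19.5% of them, against 19.4% of all genes. Among the 5296 genes above the negative control limit on at least 3 arrays of a group, as 40 of the 41 members were, 12.1% were called and 25.4% had an unadjusted p under 0.05.

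The differences of the members were mostly small. The median log2 difference of the 41 members was -0.05 and that of all genes 0.03, and the median size without sign was 0.18 for members and 0.27 for all genes. For 33 of the 41 members the 95% limma interval of the difference lay within 2-fold in either direction, and for 18 it lay within 1.5-fold. The 8 genes whose interval reached 2-fold were ATM, NBN, RAD52, FANCC, ERCC6, PRKDC, LIG4 and LIG1, each on the lower side. The signals of 35 members were above the negative control limit on all 10 arrays, and of the 25 members with several probe sets 9 had differences of both signs.

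**Figure D1:**
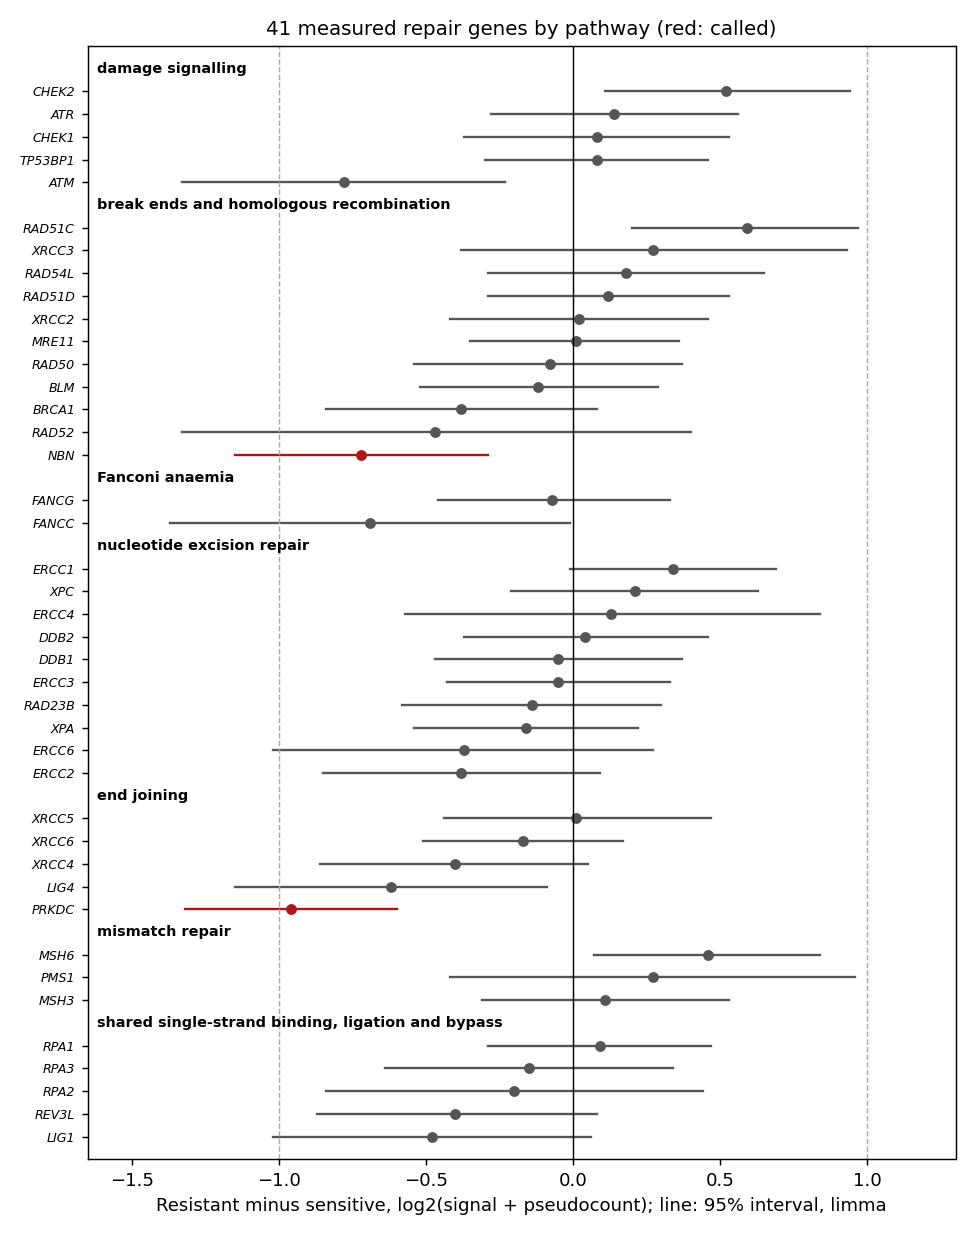
Log2 differences (resistant minus sensitive) of the 41 measured repair genes, 1 row a gene under its pathway, with 95% limma intervals as lines and dashed lines at 2-fold. PRKDC at -0.96 and NBN at -0.72 are the called genes in red, and most other intervals cross 0.

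End joining held the member with the lowest adjusted p. Of its 5 genes 1 fell and 4 were not called. PRKDC encodes the catalytic subunit of the DNA-dependent protein kinase, which the Ku proteins XRCC6 and XRCC5 bring to a broken end. Its signal was 24633, 23567, 28233, 25121 and 21419 in sensitive replicates 1 to 5 and 12625, 13047, 13524, 10110 and 13603 in resistant replicates 1 to 5. Every resistant array was below every sensitive array. The difference was -0.96 (SE 0.16, adjusted p = 0.00292, limma), a level 1.95 times higher in sensitive cells.

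The other 2 probe sets of PRKDC also had lower means in resistant cells. One was called, with 12546, 13467, 12598, 10373 and 5349 in sensitive and 4998, 4974, 5037, 4059 and 3442 in resistant arrays (difference -1.20, SE 0.26, adjusted p = 0.0139, limma). Sensitive replicate 5 lay far below the rest of its group and just above the resistant range. The remaining one was 8522 ± 2612 and 4821 ± 1749 (difference -0.82, adjusted p = 0.181, limma), with sensitive replicate 5 again lowest of its group at 4304 and the groups overlapping. The changes of the 2 called probe sets differed from that of the uncalled one by -0.38 and -0.14 (two-sided exact permutation p = 0.23 and 0.683).

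The other end joining genes were not called. XRCC6, a Ku subunit, was 57803 ± 3279 in sensitive and 51473 ± 5637 in resistant arrays (difference -0.17, 95% interval -0.51 to 0.17, adjusted p = 0.653, limma). XRCC5, the other Ku subunit, gave differences of 0.01, 0.23, 0.33 and 0.41 in its 4 probe sets. In the probe set at 0.01 the resistant arrays spread from 14178 to 28431, around the sensitive range of 20205 to 22166. The one at 0.41 was 16401 ± 2413 and 21670 ± 2108 (adjusted p = 0.22, limma).

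LIG4, the ligase that seals the joined ends, had signals of 775, 925, 1275, 560 and 503 in sensitive and 491, 440, 593, 471 and 335 in resistant arrays. The groups overlapped, and 5 sensitive but 2 resistant arrays were above the negative control limit. The difference of -0.62 was not called (SE 0.24, adjusted p = 0.185, limma). XRCC4, the scaffold that binds LIG4, was 1148 ± 215 and 850 ± 222 (difference -0.40, adjusted p = 0.354, limma).

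Of 11 measured genes for break ends and homologous recombination 1 fell, NBN, which belongs with MRE11 and RAD50 to the complex that binds and trims broken ends and activates ATM. Signals were 29949, 33937, 39821, 25566 and 23538 in sensitive and 17192, 21424, 20552, 14814 and 17655 in resistant arrays. The groups did not overlap, but sensitive replicate 5 and resistant replicate 2 lay close together. Sensitive replicates 4 and 5 were the lowest of their group. The difference was -0.72 (SE 0.20, adjusted p = 0.0464, limma), a level 1.65 times higher in sensitive cells. The call was lost on leaving out any 1 array other than sensitive replicate 5 (adjusted p of up to 0.119) and with a pseudocount of 1. MRE11, the nuclease of the complex, gave differences of 0.01, 0.18 and -0.02 in its 3 probe sets, with 4552 ± 519 and 4570 ± 452 in the first. RAD50, its ATPase, gave -0.08 and 0.31, with 1015 ± 216 and 955 ± 217 in the first, and none of these was called.

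**Figure D2:**
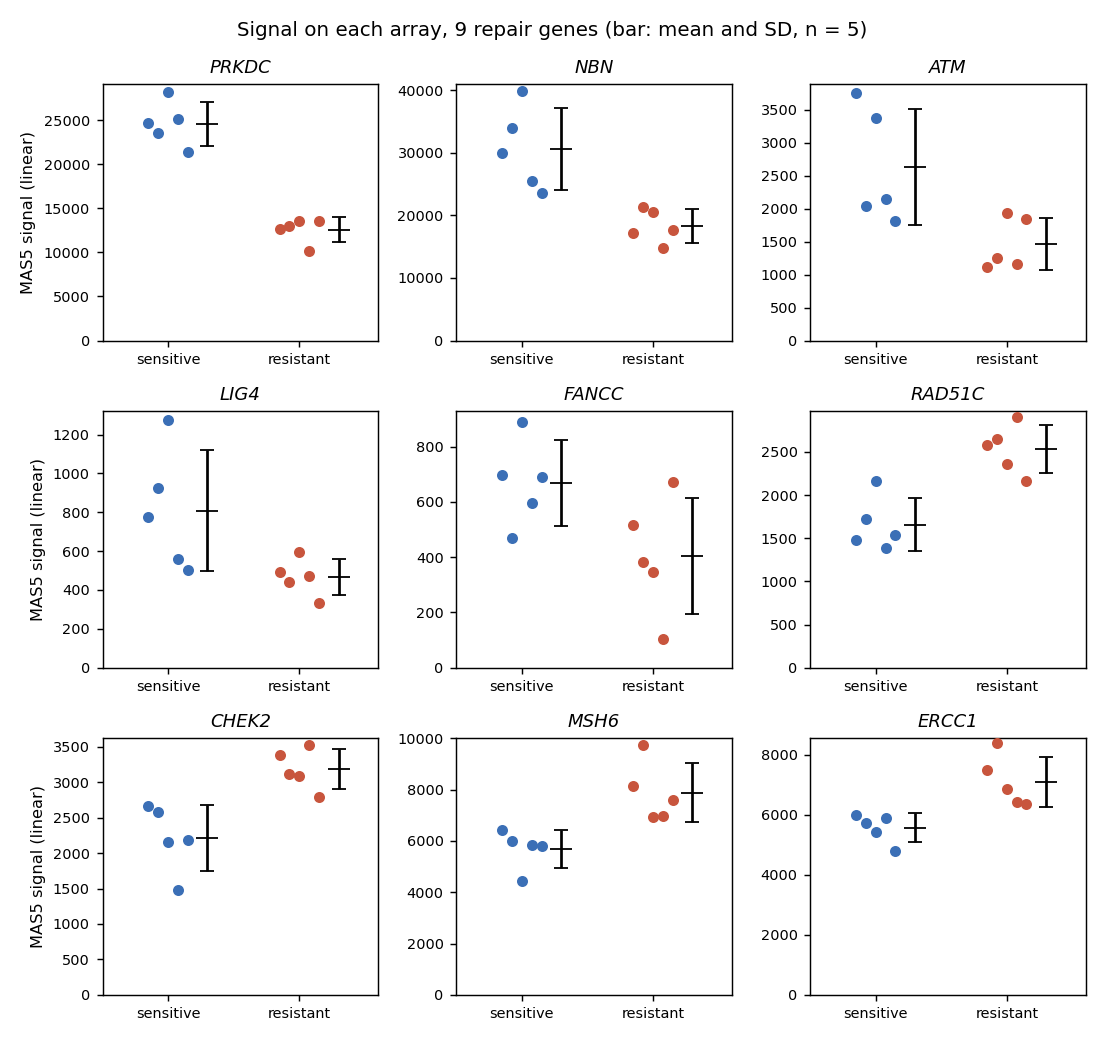
MAS5 signal (linear axis from 0) of 9 repair genes on each array, sensitive in blue and resistant in orange, with the mean and SD of 5 arrays as a bar. PRKDC, NBN, RAD51C, CHEK2, MSH6 and ERCC1 have groups that do not overlap, while ATM, LIG4 and FANCC overlap.

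PRKDC and NBN changed unequally from partners in their complexes. This was tested on the within-array difference of log2 signals for 16 pairs of partners, with a two-sided exact permutation test that cannot give less than 0.00794; it compares changes, not levels. After adjustment over the 16 pairs 3 passed, and 4 did at an unadjusted p under 0.05. The change of PRKDC differed from that of XRCC5 by -0.98 and from that of XRCC6 by -0.79, and that of NBN from RAD50 by -0.64 (each exact permutation p = 0.00794, adjusted p = 0.0423). The change of NBN differed from that of MRE11 by -0.73 (exact permutation p = 0.0159, adjusted p = 0.0635). With a pseudocount of 1, or with arrays scaled to a common median, 0 pairs passed. PRKDC still differed there from XRCC5 and XRCC6, by -0.98 and -0.80 with that pseudocount and by -0.98 and -0.79 with a common median. Each of these stayed at the smallest exact permutation p, 0.00794, but with an adjusted p of 0.0635. NBN with RAD50 no longer had that smallest value (exact permutation p = 0.0238 and 0.0159), which raised the adjusted p of the others. In the other 12 pairs, among them ERCC1 with ERCC4, XPC with RAD23B, DDB1 with DDB2, XRCC4 with LIG4 and the RPA subunits, the differences of the changes ranged from -0.33 to 0.35, and the lowest unadjusted exact permutation p was 0.151.

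**Figure D3:**
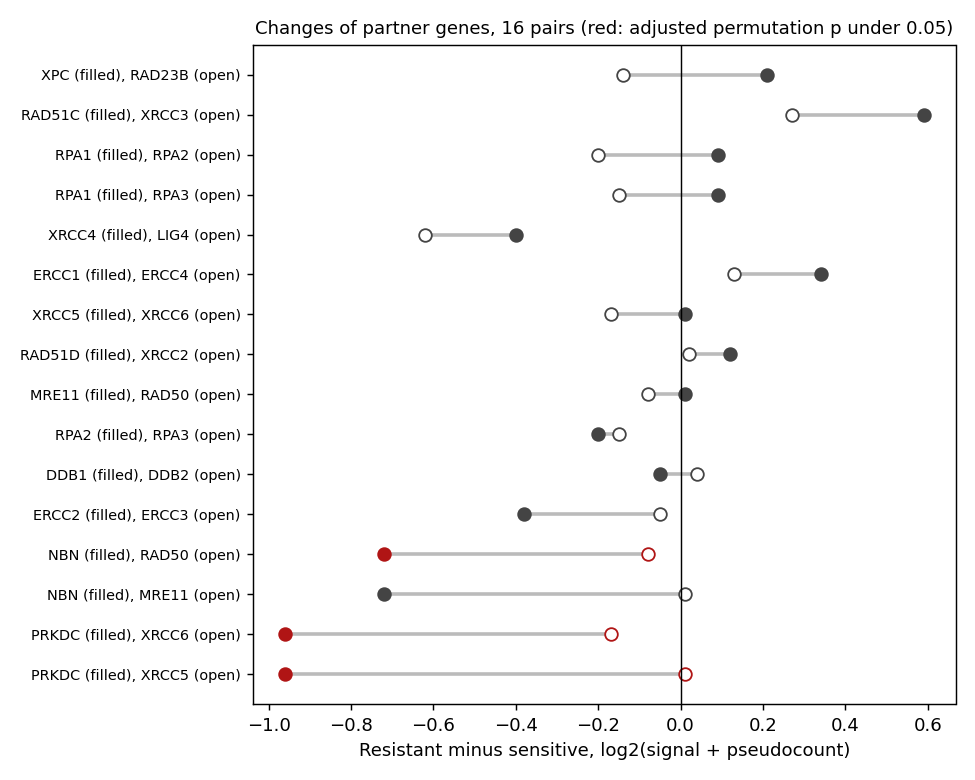
Log2 differences (resistant minus sensitive) of the 2 partners of each of 16 pairs, the first as a filled and the second as an open circle joined by a grey line, with pairs at an adjusted exact permutation p under 0.05 in red. The long lines are those of PRKDC with XRCC5 and XRCC6 and of NBN with RAD50 and MRE11.

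PRKDC and NBN are the 2 measured members that lie on chromosome 8, and the 39 members on other chromosomes held 0 calls in limma (unadjusted p under 0.05 for 3 higher and 3 lower). Of all 298 measured genes of chromosome 8, 69 were called lower and 13 higher, or 27.5% in all. Of the 188 above the limit on at least 3 arrays of a group, PRKDC and NBN among them, 68 fell and 13 rose (43.1%). The part of this in the 2 calls was not tested. Genes next to PRKDC in gene order, looked up after its values were seen, fell as well. MCM4, a subunit of the replicative helicase, fell from 15929 ± 3396 to 6610 ± 1421 (difference -1.25, adjusted p = 0.00251, limma), and its change could not be told from that of PRKDC (difference of the changes 0.29, exact permutation p = 0.183). CEBPD, a transcription factor on the other side of PRKDC, fell by 1.63 and UBE2V2, a ubiquitin-conjugating enzyme variant, fell by 1.32 (adjusted p = 1.02e-04 and 0.00421, limma). SPIDR, a scaffold protein of recombination, was 1947 ± 371 and 1155 ± 322 (difference -0.72, adjusted p = 0.0947, limma). Around NBN, OSGIN2 fell by 1.25 and the kinase gene RIPK2 fell by 0.79 (adjusted p = 0.00709 and 0.0291, limma). DECR1, on the other side of NBN, was 21478 ± 3301 and 16918 ± 2300 (difference -0.34, adjusted p = 0.363, limma). Some neighbours of uncalled members on other chromosomes were called too. TTC28 beside CHEK2 rose by 1.71 and RTN2 near ERCC1 by 1.55 (adjusted p = 0.00163 and 0.00728, limma). STON1 near MSH6 fell by 1.34 (adjusted p = 0.0228, limma). No neighbour looked up around ATM, RAD51C, FANCC or LIG4 was called.

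**Figure D4:**
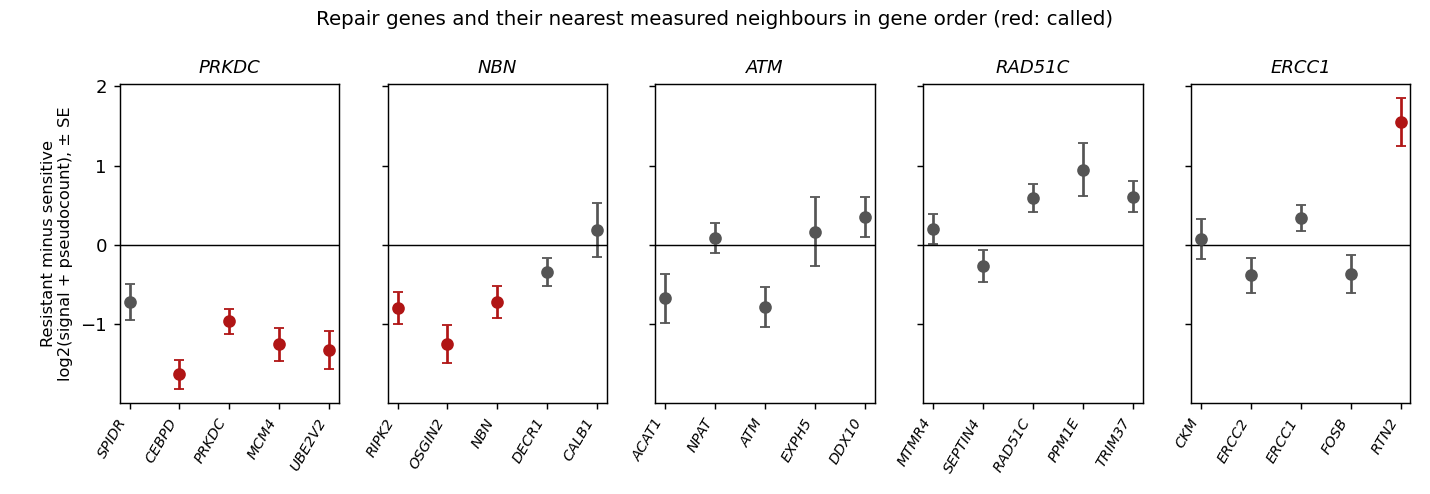
Log2 differences (resistant minus sensitive, ± SE of limma) of 5 repair genes and of up to 2 measured genes on each side in gene order, called genes in red. Around PRKDC all 5 genes lie below 0 and 4 are called, around NBN 3 of 5 are called, and around ATM and RAD51C 0 are called. Around ERCC1, RTN2 is called at 1.55.

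Of the 5 damage signalling genes 0 were called in limma, and at an unadjusted p under 0.05 CHEK2 was higher and ATM lower. CHEK2, a kinase that ATM activates, had 2663, 2584, 2154, 1479 and 2178 in sensitive and 3384, 3120, 3081, 3521 and 2795 in resistant arrays. All resistant arrays were above all sensitive ones, and the difference of 0.52 was not called (95% interval 0.11 to 0.94, adjusted p = 0.146, limma). Groups without overlap were seen in 6 of 41 members (14.6%), in 9.88% of all genes and in 14.4% of those above the limit. ATM itself, the kinase that answers double-strand breaks, had 3760, 2037, 3375, 2147 and 1818 in sensitive and 1111, 1247, 1927, 1166 and 1845 in resistant arrays in the probe set with the highest mean. The groups overlapped through sensitive replicate 5 alone. The difference of -0.78 was not called (SE 0.25, adjusted p = 0.0993, limma), but it was with dim probe sets left out (adjusted p = 0.0463) and with a trended, robust prior (adjusted p = 0.0393). A further ATM probe set was 1743 ± 310 and 1258 ± 404 (difference -0.47, adjusted p = 0.299, limma), and the remaining one was never above the negative control limit.

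NPAT, an activator of histone genes whose start lies 429 bases from that of ATM on the opposite strand, was 2805 ± 182 and 3062 ± 723 (difference 0.09, adjusted p = 0.879, limma). The change of ATM differed from that of NPAT by -0.87 (two-sided exact permutation p = 0.00794, the smallest it can give; adjusted p = 0.0119 over 3 pairs of neighbours chosen after the values were seen). ATR, which answers stalled replication, was 4051 ± 736 and 4467 ± 721. Its effector kinase CHEK1 was 1544 ± 399 and 1616 ± 271, and TP53BP1, which binds chromatin beside breaks, was 4208 ± 530 and 4473 ± 688. Their differences of 0.14, 0.08 and 0.08 were below their standard errors of 0.19, 0.21 and 0.17.

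Promoter sequences of 4 uncalled members, picked as examples after their values were seen, show how motifs differ between genes whose groups of arrays were separate (MSH6, CHEK2 and RAD51C, with higher means in resistant cells) or nearly so (ATM, with a lower mean). ERCC1 also had separate groups, but its window held 0 matches to any motif searched and is not printed. They are RefSeq windows of GRCh38.p14, from 250 bases before to 50 after the annotated start, written 5′ to 3′ along the gene. Capitals mark motifs searched on both strands: the GC box GGGCGG, the CCAAT box CCAAT, E2F sites (TTTGGCGC, TTTCCCGC, TTTCGCGC or TTTGCCGC), the ETS site CCGGAAG, the E box CACGTG, the TATA box TATAAA and the cyclic AMP response element TGACGTCA.
MSH6, chr2:47782895-47783194, plus strand: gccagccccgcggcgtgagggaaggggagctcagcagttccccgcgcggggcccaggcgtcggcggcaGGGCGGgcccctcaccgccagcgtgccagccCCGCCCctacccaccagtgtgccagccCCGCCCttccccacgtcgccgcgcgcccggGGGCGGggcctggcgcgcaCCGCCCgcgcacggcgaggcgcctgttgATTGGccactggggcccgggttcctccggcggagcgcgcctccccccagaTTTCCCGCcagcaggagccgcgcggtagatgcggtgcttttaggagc
CHEK2, chr22:28741771-28742070, minus strand: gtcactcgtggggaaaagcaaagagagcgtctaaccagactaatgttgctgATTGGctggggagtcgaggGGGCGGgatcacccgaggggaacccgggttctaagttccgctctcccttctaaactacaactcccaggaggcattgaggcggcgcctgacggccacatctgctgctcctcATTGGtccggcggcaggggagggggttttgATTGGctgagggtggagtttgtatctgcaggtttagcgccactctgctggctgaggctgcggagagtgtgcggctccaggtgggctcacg
RAD51C, chr17:58692323-58692622, plus strand: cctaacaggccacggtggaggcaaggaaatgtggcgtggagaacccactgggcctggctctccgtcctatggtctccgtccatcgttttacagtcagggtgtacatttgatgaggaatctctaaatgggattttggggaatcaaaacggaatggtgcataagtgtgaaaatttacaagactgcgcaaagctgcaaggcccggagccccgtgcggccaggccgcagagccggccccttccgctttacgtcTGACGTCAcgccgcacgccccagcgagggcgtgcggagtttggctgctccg
ATM, chr11:108222817-108223116, plus strand: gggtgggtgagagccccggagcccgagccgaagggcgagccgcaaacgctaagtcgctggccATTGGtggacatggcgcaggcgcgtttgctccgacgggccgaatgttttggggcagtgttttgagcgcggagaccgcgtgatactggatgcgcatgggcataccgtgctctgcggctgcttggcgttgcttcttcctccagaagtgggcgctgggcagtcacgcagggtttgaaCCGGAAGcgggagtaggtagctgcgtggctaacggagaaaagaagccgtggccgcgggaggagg
The MSH6 window held 5 GC boxes, 1 CCAAT box and 1 E2F site, and that of CHEK2 held 1 GC box and 3 CCAAT boxes. That of RAD51C held 1 cyclic AMP response element, and that of ATM 1 CCAAT box and 1 ETS site. No motif of this set stood in all of MSH6, CHEK2 and RAD51C.

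Of the 41 measured members 36 had a promoter in the table. GC boxes were found in 77.8% of these, against 63.8% of 6618 measured genes and 44.6% of all 27305 promoters of the same length. E2F sites, which bind factors acting at the start of S phase, were found in 7 of 36 (19.4%), namely XPC, XRCC6, XRCC2, LIG1, FANCC, MSH3 and MSH6, against 4.77% of measured genes and 3.33% of all promoters. ETS sites were found in 30.6%, against 14.2% and 10.7%, and CCAAT boxes in 44.4%, against 36.8% and 35.7%. The TATA box stood in 2.78%, against 8.66% and 12%. These are matches of letters around annotated starts, and no binding of a factor was measured.

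Of the recombination genes other than NBN, RAD51C had the lowest adjusted p. It encodes a recombination protein that works in complexes with XRCC3, RAD51D and XRCC2. Signals were 1474, 1724, 2158, 1390 and 1542 in sensitive and 2579, 2646, 2362, 2898 and 2167 in resistant arrays. The groups did not overlap, by the narrow margin between sensitive replicate 3 and resistant replicate 5. The difference was 0.59 (SE 0.18, adjusted p = 0.0701, limma). The other probe set had 993 ± 171 and 1454 ± 207 (difference 0.51, adjusted p = 0.146, limma), with overlap. RAD51C was called under 5 of 19 alternatives, among them the mean of both probe sets (difference 0.55, adjusted p = 0.0427, limma) and without sensitive replicate 3 (difference 0.68, adjusted p = 0.0351, limma).

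These partners were not called. XRCC3 was 737 ± 324 and 856 ± 178, RAD51D was 1310 ± 347 and 1402 ± 110, and XRCC2 was 1468 ± 358 and 1463 ± 210. BRCA1, which directs broken ends to recombination, was 5673 ± 998 in sensitive and 4369 ± 1001 in resistant arrays (difference -0.38, 95% interval -0.84 to 0.08, adjusted p = 0.396, limma), and its other 2 probe sets gave -0.16 and -0.21. The helicase BLM was 4217 ± 906 and 3831 ± 424, and RAD54L, a DNA motor protein of recombination, gave 0.18 and -0.23 in its 2 probe sets. RAD52, an annealing protein, was near the negative control limit: 2 of its 3 probe sets were never above it, and the other was above it on 3 sensitive and 0 resistant arrays (504 ± 360 and 287 ± 118, adjusted p = 0.624, limma).

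In the Fanconi anaemia group 2 of 4 genes were measured and 0 were called in limma, with FANCC lower at an unadjusted p under 0.05. FANCG and FANCC are parts of the core complex that marks crosslinked sites with ubiquitin. FANCG was 4195 ± 780 and 3963 ± 443 (difference -0.07, adjusted p = 0.908, limma). FANCC had 697, 468, 890, 596 and 690 in sensitive and 516, 382, 346, 105 and 671 in resistant arrays. The groups overlapped, and 5 sensitive but 2 resistant arrays were above the negative control limit. Its difference of -0.69 was not called (SE 0.31, adjusted p = 0.269, limma), and that of its other probe set, -0.71, had a standard error of 0.50. Single arrays moved both values: the first was -0.41 without resistant replicate 4, and the other -1.17 without sensitive replicate 1, neither called.

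Of the 10 measured nucleotide excision repair genes 0 were called, and 0 reached an unadjusted p under 0.05 in limma in the probe set with the highest mean. The one whose groups did not overlap there was ERCC1, whose protein forms with ERCC4 (XPF) the nuclease that cuts beside bulky lesions and crosslinks. Its signals were 5992, 5718, 5438, 5902 and 4777 in sensitive and 7478, 8378, 6846, 6415 and 6358 in resistant arrays (difference 0.34, 95% interval -0.01 to 0.69, adjusted p = 0.299, limma). Every resistant array was above every sensitive one. A second probe set had 3603 ± 212 and 4927 ± 623, also without overlap (difference 0.43, adjusted p = 0.151, limma). The remaining one had 4793 ± 592 and 7001 ± 954, with overlap (difference 0.53, adjusted p = 0.0984, limma). The 3 probe sets had means 1.27, 1.35 and 1.45 times higher in resistant cells on the fitted scale, but they come from 1 source sequence and the same arrays and are not independent. The last of them was called under 3 of 18 alternatives, and the other 2 under 0.

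**Figure D5:**
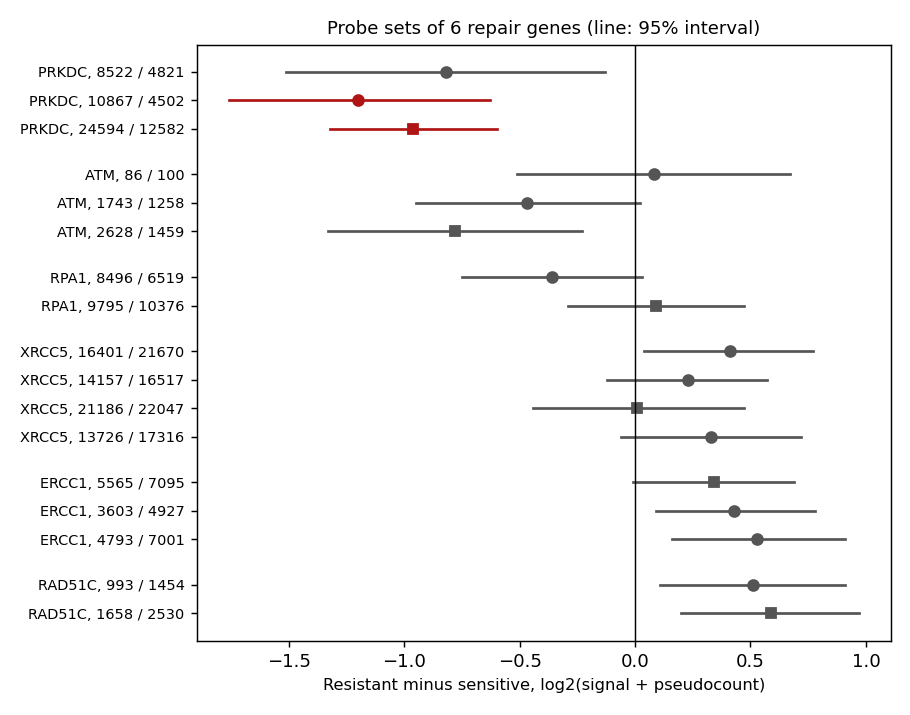
Log2 differences (resistant minus sensitive) with 95% limma intervals for each probe set of 6 repair genes, labelled with the mean signals of sensitive and resistant arrays; squares mark the probe set with the highest mean and red the called ones. All probe sets of ERCC1 and RAD51C lie above 0 and all of PRKDC below it, whereas those of RPA1 lie on both sides.

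ERCC2, a helicase of the repair and transcription factor TFIIH and the measured neighbour of ERCC1 on chromosome 19, was 1948 ± 354 and 1487 ± 348 (difference -0.38, adjusted p = 0.404, limma). The changes of ERCC1 and ERCC2 differed by 0.72 (two-sided exact permutation p = 0.00794, the smallest it can give, adjusted p = 0.0119 over the 3 pairs of neighbours). Those pairs were chosen after the values were seen, and the adjustment does not cover that choice. Neither gene was called by itself. ERCC4 was 1343 ± 554 and 1434 ± 427 (difference 0.13, SE 0.32). XPC and RAD23B, which find the lesion, gave differences of 0.21 and -0.14, and XPA, which helps to verify it, gave -0.16 (3728 ± 558 and 3312 ± 420). DDB1 and DDB2, which form a damage sensor in chromatin, gave -0.05 (9798 ± 1525 and 9508 ± 1892) and 0.04 (2594 ± 389 and 2688 ± 500). The TFIIH helicase ERCC3 gave -0.05. ERCC6, which acts where transcription stalls, was above the limit on 1 sensitive and 0 resistant arrays.

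In mismatch repair 3 of 4 genes were measured and 0 were called in limma, with MSH6 higher at an unadjusted p under 0.05. MSH6, which takes part in recognising base mismatches, had 6408, 5996, 4434, 5859 and 5789 in sensitive and 8139, 9745, 6932, 6974 and 7586 in resistant arrays. Every resistant array was above every sensitive one. The difference of 0.46 was not called (95% interval 0.07 to 0.84, adjusted p = 0.175, limma). Its other probe set was near the limit, with 463 ± 173 and 550 ± 344. MSH3, which takes part in recognising larger loops, was 1582 ± 215 and 1734 ± 406, and PMS1, a further mismatch repair protein, gave 0.13, 0.27 and 0.20 in its 3 probe sets (standard errors 0.24, 0.32 and 0.31).

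Of the 5 genes that serve several pathways 0 were called, and 0 reached an unadjusted p under 0.05 in limma. The subunits of RPA, the protein that coats single-stranded DNA, gave differences of 0.09 for RPA1, -0.20 for RPA2 and -0.15 for RPA3. A further probe set of RPA1 had 8496 ± 1581 and 6519 ± 496 (difference -0.36, adjusted p = 0.324, limma), opposite in sign. RPA2 had 13775, 13360, 15307, 10761 and 6480 in sensitive and 12817, 6016, 13658, 11517 and 7951 in resistant arrays, with 1 or 2 low arrays in each group. LIG1, the ligase of replication and excision repair, was 2635 ± 562 and 1905 ± 593 (difference -0.48, 95% interval -1.02 to 0.06, adjusted p = 0.356, limma). REV3L, the catalytic subunit of the bypass polymerase zeta, was 3716 ± 488 and 2868 ± 844 (difference -0.40, adjusted p = 0.385, limma).

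Of 91 further repair genes listed, 55 were measured, and 1 was called (1.82%, against 8.4% of all genes). RECQL4, a helicase of the same family as BLM that also lies on chromosome 8, had 3958, 4059, 5885, 2601 and 2966 in sensitive and 1819, 1717, 1486, 1029 and 1412 in resistant arrays. The groups did not overlap and the difference was -1.29 (SE 0.24, adjusted p = 0.00564, limma). WRN, a further helicase of that family on the same chromosome, was 1199 ± 283 and 1078 ± 306 (difference -0.15, adjusted p = 0.814, limma). At an unadjusted p under 0.05 in limma the 55 held 1 gene higher and 4 lower (9.09%, against 19.4% of all genes). Their median log2 difference was 0.01. The 15 measured genes of bypass and repair synthesis, among them the sliding clamp PCNA (39219 ± 6434 and 40612 ± 4869), were not called, with differences from -0.27 to 0.23.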

How the data were processed

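Signals of 10 1-colour Affymetrix arrays, 5 sensitive and 5 resistant by the sample titles, were taken as deposited. The authors made these intensity values, on a linear scale, with MAS5, per the submitters' processing notes; version and settings: not given in the sources used here. Deposited values already shared a 2% trimmed mean (2501.33 to 2501.51). Arrays were scaled to the average of these, and log2(signal + 114.8) of the scaled signals was analysed. The pseudocount was the 20th percentile of all scaled signals, so differences of dim probe sets are understated. The 67 control probe sets were left out. The negative control limit, the 95th percentile of 32 controls, was 319.7 to 739.8.

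Resistant minus sensitive was tested with lmFit and eBayes (limma 3.58.1, R 4.3.3, no covariate) over 12558 probe sets with Benjamini-Hochberg adjustment, in a script tested on simulated data. Exact permutation tests went through all splits of the arrays, in Python 3.11.15 with numpy 2.4.6. Trimmed means were taken with scipy 1.17.1. Symbols of the platform annotation were updated to GRCh38.p14 (10934 of 10943 probe sets with 1 symbol matched). Where a gene had several probe sets, the one brightest on average (log2) stands for it.

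Values in every array are given for members with a called probe set, or whose representative had an unadjusted p under 0.05 or groups without overlap; the brightest member of each pathway is also named. Other members are given by means or differences. Members, lists and pairs were chosen with earlier results of these data known, and the neighbouring genes, WRN and PCNA after their values were seen. Alternatives were 2 pseudocounts, 2 scalings, a filter on dim probe sets, a trended prior, a replicate block, the mean of a gene's probe sets, exact permutation and leaving out each array. The number of arrays limits the precision.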

Additional observations from a re-analysis of the deposited data

Results flagged for a closer look

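Among the probe sets that represent the 41 members, 82 groups of 5 arrays were checked for an array far from the other 4, by its gap to the nearest of them over the range of the group, and 8 were found. Chance gives about 1 in 20. BRCA1 was 3973 in sensitive replicate 5, against 5822 to 6565 in the others. In sensitive replicate 3 MSH6 was 4434, against 5789 to 6408, and ERCC3 was 4941, against 3269 to 3649. ERCC6 was 261 in sensitive replicate 4, against 353 to 393. XRCC6 was 52144 in sensitive replicate 2, against 58274 to 60557. BLM was 3100 in resistant replicate 2, against 3840 to 4150, and ERCC2 was 887 in resistant replicate 3, against 1504 to 1761. PRKDC was 10110 in resistant replicate 4, against 12625 to 13603, and its call held without this array and without each other array in turn (adjusted p of up to 0.00954, limma).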

How the results depend on the processing

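No difference of a named probe set that was called changed sign under any alternative run. PRKDC kept its call in the probe set with the highest mean under 18 of 19 alternatives (differences from -1.10 to -0.89). NBN kept it under 7 of 19. In the exact permutation test both lost it, and 0 of 12558 probe sets passed after adjustment (lowest adjusted p = 0.0934). At an unadjusted exact permutation p under 0.05 there were 2246. Both genes had 0.00794, the smallest exact permutation p possible, so that test could not have called either after adjustment. Limma called 931 probe sets, and 691 to 860 on leaving out 1 array. The 2 member genes called became 1 with a pseudocount of 1, 4 with dim probe sets left out, 4 with a trended, robust prior, 0 among members not on chromosome 8 (an alternative chosen after seeing the data) and 1 to 2 on leaving out 1 array. The 3 member probe sets called became 5 with a pseudocount 4 times larger, 6 with dim probe sets left out, 6 with the trended prior and 2 to 3 on leaving out 1 array. The 3 complex pairs became 0 with a pseudocount of 1 and 0 with a common median. In both settings the PRKDC pairs stayed at the smallest exact permutation p (0.00794, adjusted p = 0.0635). On leaving out 1 array 0 to 3 pairs passed (0 without sensitive replicate 1, 2, 3 or 5). Without sensitive replicate 4 the 3 were PRKDC with XRCC6, NBN with MRE11 and RAD51C with XRCC3 (each adjusted p = 0.0423, exact permutation). PRKDC with XRCC5 and NBN with RAD50 then had an adjusted p of 0.0508 (exact permutation). Without any 1 resistant array the same 3 pairs passed as with all arrays. The 0 differences between probe sets of PRKDC became 0 to 1, and the 0 differences in array quality 0 to 1, on leaving out 1 array (1 without resistant replicate 3 and without resistant replicate 4, respectively). The causes of these moves were not tested. Whether replicate numbers pair the samples was not tested. Correlations of deviations between arrays of the same number were 0.04, 0.02, 0.12, 0.01 and 0.04. Of 5 sensitive samples 3 were closest to the resistant sample of their own number. With the replicate block 794 probe sets, 2 member probe sets and 1 member gene were called, and NBN had an adjusted p of 0.0532 (limma). Signals near the negative control limit limit what can be read for RAD52, ERCC6, FANCC and LIG4.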

Other observations

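Among the further repair genes, 5 reached an unadjusted p under 0.05 in limma, and RECQL4 alone was called. CCNH, the cyclin of the TFIIH kinase, was 9133 ± 1826 in sensitive and 12728 ± 2347 in resistant arrays (adjusted p = 0.25, limma). RAD9A, a subunit of the checkpoint clamp, was 1109 ± 348 and 607 ± 396 (adjusted p = 0.219, limma), while its partner RAD1 was 4521 ± 1021 and 4537 ± 1207. CETN2, which binds XPC, was 2575 ± 497 and 1742 ± 455 (adjusted p = 0.192, limma), and PMS2P3, a relative of PMS2 whose probes may also read similar copies, was 2609 ± 295 and 1901 ± 196 (adjusted p = 0.16, limma).

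The 2 listed genes whose probe sets all carry several symbols were not called. ERCC5, the nuclease that cuts on the 3' side in excision repair, shares 2 probe sets with BIVM-ERCC5: 1126 ± 462 and 863 ± 237 in one, and 2951 ± 406 and 2296 ± 483 in the other (adjusted p = 0.639 and 0.368, limma). PMS2, a mismatch repair protein, shares 4 probe sets with related genes, with log2 differences of -0.32, 0.42, -0.47 and -0.18 (adjusted p = 0.682, 0.481, 0.51 and 0.815, limma).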
